A study of Homo sapiens with 4 samples.

Results

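The centrosome and spindle pole genes described here are 52 rows of the count table, of 20263 in all. A row was taken when its symbol was CEP followed by a number, or was 1 of 14 further names: ASPM, PCNT, CNTRL, NIN, CENPJ, CDK5RAP2, PCM1, SASS6, STIL, AKAP9, LRRCC1, NUMA1, HMMR and CKAP5. All 14 of these names were found. The rule uses names, not measured values, but the members were chosen with earlier results of these data known. MDA-MB-231 cells, an established line from a triple-negative breast tumour, were cultured for 24 h with Rib_CA, which the series title describes as a derivative of ribociclib, or with DMSO. Every library came from this 1 cell line, and the dose of Rib_CA is not given in the sources used here. RNA was sequenced from 2 libraries of each group, and the comparison asks how the compound changed transcript levels.

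A centrosome is a pair of centrioles inside a cloud of pericentriolar material that nucleates microtubules. Centrioles are copied once in each cell cycle, and in mitosis the separated centrosomes form the spindle poles. The older centriole carries appendages that anchor microtubules and, in a resting cell, let it dock at the membrane as the base of a cilium. Cancer cells often carry extra or misshapen centrosomes. Many of the genes are also known from inherited disease: ASPM, CENPJ, CDK5RAP2, STIL, SASS6 and CEP152 from primary microcephaly, and CEP290 and other cilium genes from retinal and kidney disease.

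The libraries held 34774542 to 38865103 counts, and 3.13 to 21.7% of them came from mitochondrial transcripts, most in DMSO 2. Transcripts of VIM, CD44, AXL, CAV1 and EGFR were abundant (276 to 4302 counts per 1000000 counts of the library), as known for this line. CDH1 had 0 to 3 counts, ESR1 4 to 23 and PGR 16 to 58, while GATA3, a luminal marker, had 131 to 716. CD3E had no count, and PTPRC, PECAM1 and ALB had 0 to 41. All 52 centrosome genes passed the filter on low counts, and 51 had at least 1 CPM in each library. CPM stands for counts per 1000000, here with the TMM factor that adjusts a library total for its composition.

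Promoter sequence of 5 members is shown first. These were picked by hand, to include both members that moved with Rib_CA and 1 that did not pass, and do not represent the others. ASPM, CKAP5 and CEP55 hold a CHR, the letters TTTGAA or their reverse complement, to which the MuvB complexes of the cell cycle bind. STIL holds an E2F-type match, and PCNT holds neither in the bases shown. Among all members with a promoter on hand, a CHR was present in 10 of 20 called lower and in 9 of 24 not called. Each line gives bases before the RefSeq start site (GRCh38.p14, gene strand, 5′ to 3′, GENCODE exons left out). Capitals mark a CHR, a CCAAT box (CCAAT or ATTGG) or an E2F-type match.
ASPM (chr1:197146695-197146894, minus strand): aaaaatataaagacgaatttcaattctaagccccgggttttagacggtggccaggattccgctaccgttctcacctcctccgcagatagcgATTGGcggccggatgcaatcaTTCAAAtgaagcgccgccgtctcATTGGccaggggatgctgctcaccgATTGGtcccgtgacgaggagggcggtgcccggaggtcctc
CKAP5 (chr11:46846309-46846411, minus strand): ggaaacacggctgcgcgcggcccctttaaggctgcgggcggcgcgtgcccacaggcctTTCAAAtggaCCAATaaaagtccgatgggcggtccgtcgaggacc
CEP55 (chr10:93496412-93496611, plus strand): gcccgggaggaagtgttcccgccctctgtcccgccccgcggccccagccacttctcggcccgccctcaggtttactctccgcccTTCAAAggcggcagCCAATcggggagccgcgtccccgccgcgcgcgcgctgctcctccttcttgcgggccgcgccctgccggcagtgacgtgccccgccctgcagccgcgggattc
STIL (chr1:47314148-47314347, minus strand): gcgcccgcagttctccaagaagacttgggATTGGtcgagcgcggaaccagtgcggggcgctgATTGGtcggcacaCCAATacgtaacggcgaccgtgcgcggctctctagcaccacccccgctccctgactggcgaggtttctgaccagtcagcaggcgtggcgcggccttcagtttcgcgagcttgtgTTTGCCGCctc
PCNT (chr21:46323922-46324121, plus strand, 1 of 2 starts): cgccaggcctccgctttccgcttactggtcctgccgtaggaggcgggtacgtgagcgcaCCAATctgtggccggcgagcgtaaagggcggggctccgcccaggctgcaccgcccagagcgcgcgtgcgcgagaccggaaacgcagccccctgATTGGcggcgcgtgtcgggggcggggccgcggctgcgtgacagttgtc
The CHR begins 113 bases before the start in ASPM, 73 in CKAP5 and 116 in CEP55. A CCAAT box follows it within the next bases in CKAP5 (63 bases before the start) and CEP55 (102), and ASPM has 3 on the opposite strand (134, 90 and 65). The E2F-type match of STIL begins 11 bases before the start.

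RefSeq promoters, 250 bases before to 50 after a start, were on hand for 44 of the 52 genes. The CHR was searched as TTTGAA, the CCAAT box as CCAAT and the E2F-type motif as TTTCCCGC, TTTGCCGC, TTTCGCGC or TTTGGCGC, each on both strands. No string contains another, and a gene counted when any of its promoters held a match. A CHR was present in 19 of 44 members (43.2%), in 13.9% of 10909 tested genes and in 18.2% of all 27305 genes with a promoter. It stood in 10 of the 20 members with a promoter that were lower in Rib_CA and in 9 of the 24 that were not called, and in 23.6% of all 590 genes with a promoter that were called lower. An E2F-type match was present in 9 of 44 members (20.5%), in 6.49% of tested genes and in 3.99% of all genes with a promoter. It stood in 7 of the 20 lower members and in 2 of the 24 others, and in 11.0% of all 590 genes with a promoter that were called lower. Those 7 were CEP112, CEP162, CEP192, CEP63, CNTRL, SASS6 and STIL. A CCAAT box was found in 25 of 44 members, in 42.9% of tested genes and in 39.7% of all genes. It stood in 11 of the 20 lower members, in 14 of the 24 others and in 50.3% of all genes called lower. These matches are descriptions of letters in a window, and the binding of a factor was not measured.

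Of the 52 genes, 23 fell in Rib_CA and none rose at an adjusted p under 0.05 in edgeR's quasi-likelihood test. Over all 13667 genes tested, 5.11% were called lower and 2.01% higher. The falls ran from 2.74-fold in CEP43 to 9.55-fold in ASPM. The 2 genes of the linker between centrioles and the 4 other CEP genes were not among them, too few to set against the share of all genes. Called members were found among spindle pole genes (3 of 4), the pericentriolar scaffold (3 of 5), centriole assembly (6 of 14), appendages (4 of 9) and satellites and cilium gate (6 of 13). CEP55, of cytokinesis, fell as well. The median log2 fold change was -1.37 over the 52 genes and 0.03 over all genes tested, and 45 of the 52 were negative. Both Rib_CA libraries lay below both DMSO libraries for 43 of the 52, against 28.4% of all genes, and above them for 3, against 30.4%. At an unadjusted p under 0.05, 34 members were lower (14.7% of all genes) and none higher. DESeq2 called 33 lower (11.1% of all genes) and none higher, and limma-voom 21 (4.67%) and none. Members called lower by DESeq2 and not by edgeR were CDK5RAP2, CEP135, CEP170, CEP250, CEP57, CEP57L1, CEP70, CEP78, CEP83 and CEP97.

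Counts of the 52 genes together made up 0.394% of DMSO 1 (95% Wilson interval 0.391 to 0.396) and 0.292% of DMSO 2 (0.290 to 0.294). They made up 0.172% of Rib_CA 1 (0.171 to 0.173) and 0.181% of Rib_CA 2 (0.179 to 0.182). The intervals cover counting error only, with each count taken as independent. Even values made up 67.7 to 70.7% of counts from 1 to 10, so independence may not hold and the intervals may be too narrow. Both treated libraries lay below both controls, and the spread between the controls was wider than that between the treated libraries. The mitochondrial share was 8.68 and 21.7% in DMSO and 5.79 and 3.13% in Rib_CA. Of the counts outside mitochondrial genes, the 52 genes made up 0.431 and 0.373% in DMSO and 0.182 and 0.187% in Rib_CA, and with mitochondrial genes left out of the fit 23 members were again called lower. In these bulk libraries, fewer cells of a type and less RNA per cell cannot be told apart.

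**Figure D1:**
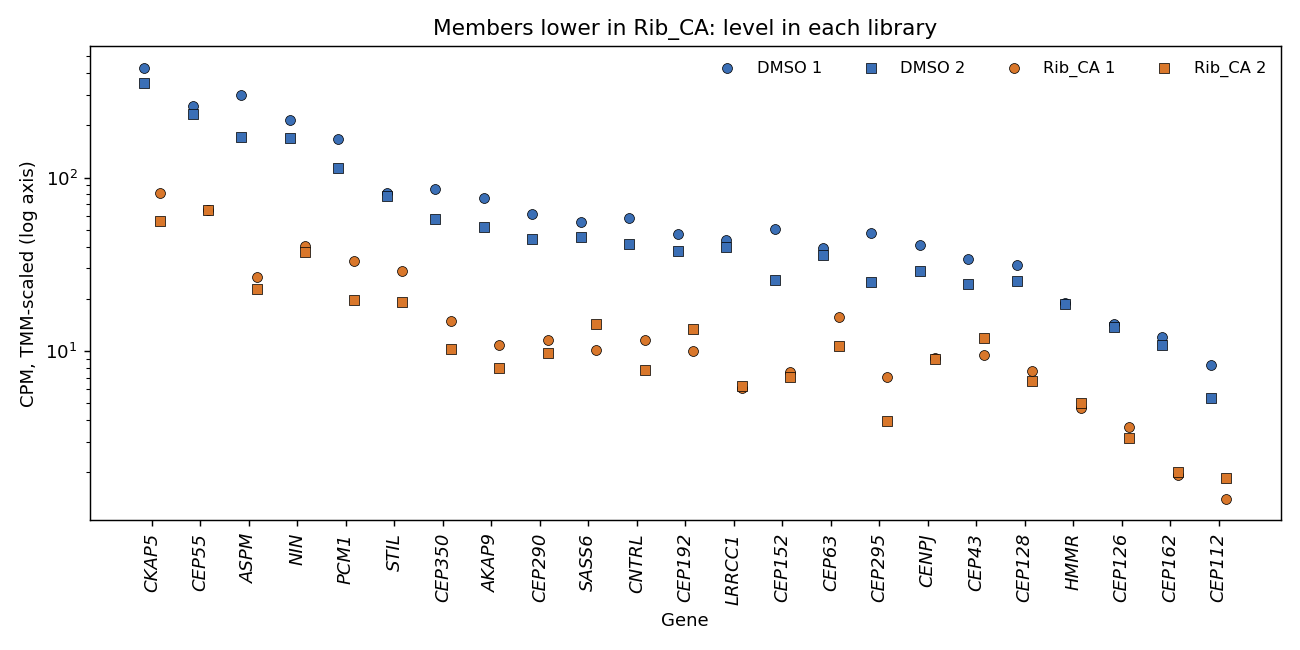
Level of the 23 members called lower, in CPM on a log axis, with 1 point for each of the 4 libraries (blue DMSO, orange Rib_CA; circles replicate 1, squares replicate 2). Every orange point lies below both blue points of its gene, and DMSO 1 lies above DMSO 2 for all 23.

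The number of calls changed with the library left out and with a correction for base composition. Without DMSO 1, 9 of the 52 were called lower (0.975% of all genes) and 14 of the 23 lost their call. Without DMSO 2, 17 were called (2.53%) and 6 of the 23 lost it. Without Rib_CA 1 the count was 30 (11.7%) and without Rib_CA 2 it was 34 (11.6%), with none of the 23 lost and CEP44 or CEP170B called higher. The 9 that passed in all 4 of these fits were LRRCC1, ASPM, NIN, AKAP9, CKAP5, CEP290, CEP350, CNTRL and PCM1. No fold of the 23 moved by over 1.5 times with a library left out. With library-wise offsets for the GC content of transcripts, or for both GC and length, no gene of the whole table passed in edgeR. The smallest adjusted p of a member was then 0.0643 or 0.0803. At an unadjusted p under 0.05, 32 members were lower after the GC correction (12.6% of all genes) and 29 after the correction for GC and length (11.9%), and none was higher. These 29 include 22 of the 23, all but CEP43. After the GC correction alone CEP43 was 2.05-fold lower, at an unadjusted p under 0.05. The median after the correction for GC and length was -0.71 over the members and 0.03 over all genes.

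At the spindle poles, 3 of 4 genes fell. ASPM (chr1:197084128-197146694, GRCh38, GENCODE release 29) encodes a protein that gathers microtubule minus ends at the poles. Its level was 301 and 171 CPM in DMSO 1 and 2 and 26.8 and 22.7 CPM in Rib_CA 1 and 2. The controls differed from each other by 1.76 times, and both stood far above the treated libraries. The change was 9.55-fold (log2 fold change -3.25 ± 0.36 SE; edgeR adjusted p = 0.0285), 6.94 to 12.2-fold with 1 library left out and 4.49-fold after the GC and length correction. CKAP5 (chr11:46743048-46846308), a polymerase that lengthens microtubules, was at 431 and 352 CPM in DMSO and at 81.3 and 56.0 CPM in Rib_CA. It was 5.70-fold lower (-2.51 ± 0.31; adjusted p = 0.0285). HMMR, which helps to assemble microtubules near chromosomes and poles, was at 18.9 and 18.7 CPM in DMSO and at 4.67 and 5.00 CPM in Rib_CA, a 3.88-fold fall. The replicates of HMMR were nearly level within each group, but its call was lost on leaving out either DMSO library. NUMA1, which ties dynein to microtubule ends at the poles, was at 381 and 467 CPM in DMSO and at 367 and 274 CPM in Rib_CA. The groups lay close together, and NUMA1 did not pass (-0.41 ± 0.29; adjusted p = 0.396). The log2 fold change of NUMA1 was -0.83 after the GC correction and -0.53 after the GC and length correction. Each had an unadjusted p under 0.05 in edgeR, and neither passed after adjustment.

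In the group listed as pericentriolar scaffold, LRRCC1, AKAP9 and CEP192 fell, while PCNT and CDK5RAP2 did not pass. The place of LRRCC1 in this group is an assignment made here, not a result. LRRCC1, which encodes a coiled-coil protein of the centrosome, was at 43.4 and 39.7 CPM in DMSO and at 6.15 and 6.25 CPM in Rib_CA. It had the smallest p of all members and was 6.70-fold lower (-2.75 ± 0.29; adjusted p = 0.0285), and 4.34-fold lower after the GC and length correction. AKAP9 (chr7:91940867-92110673), a scaffold of protein kinase A that holds microtubule-nucleating complexes at the centrosome and Golgi, was at 75.8 and 52.0 CPM in DMSO and at 10.8 and 8.02 CPM in Rib_CA. That is a 6.80-fold fall (-2.77 ± 0.34; adjusted p = 0.0285), of 3.09-fold after correction. CEP192, which recruits the kinases PLK4 and Aurora A, was at 47.2 and 37.6 CPM in DMSO and at 9.98 and 13.4 CPM in Rib_CA. Its 3.63-fold fall (2.15-fold after correction) lost its call without DMSO 1 and with libraries scaled by total counts alone. PCNT, or pericentrin, the large scaffold that shares its centrosome-targeting domain with AKAP9, was at 122 and 106 CPM in DMSO and at 86.1 and 63.5 CPM in Rib_CA. Its groups did not overlap, yet the difference was small (-0.61 ± 0.27; adjusted p = 0.201). The log2 fold change of PCNT was -0.95 after the GC correction and -0.46 after the GC and length correction. CDK5RAP2, which activates gamma-tubulin complexes, was at 103 and 86.5 CPM in DMSO and at 44.4 and 54.6 CPM in Rib_CA (-0.94 ± 0.27; adjusted p = 0.0818).

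Of the 14 genes of centriole assembly, 6 fell and 13 had negative fold changes. SASS6 forms the cartwheel on which a new centriole is built, STIL joins the cartwheel to the kinase PLK4, and CENPJ adds microtubules to the growing wall. SASS6 was at 55.2 and 45.2 CPM in DMSO and at 10.2 and 14.4 CPM in Rib_CA (4.08-fold lower; -2.03 ± 0.32; adjusted p = 0.0285). STIL was at 82.0 and 78.2 CPM in DMSO and at 28.9 and 19.3 CPM in Rib_CA (3.32-fold; adjusted p = 0.0298). CENPJ was at 40.9 and 29.1 CPM in DMSO and at 9.11 and 9.01 CPM in Rib_CA (3.86-fold; adjusted p = 0.0287). In all 3 the higher treated library was below the lower control. CEP152 and CEP63 form the ring that brings PLK4 to the parent centriole. CEP152 was at 50.2 and 25.7 CPM in DMSO and at 7.55 and 7.06 CPM in Rib_CA (5.19-fold; adjusted p = 0.0293), and CEP63 at 39.1 and 35.7 CPM and at 15.7 and 10.6 CPM (2.84-fold; adjusted p = 0.0422). CEP295, which turns a new centriole into one that can organise a centrosome, was at 48.1 and 25.1 CPM in DMSO and at 7.10 and 3.93 CPM in Rib_CA (6.64-fold; adjusted p = 0.0296). The controls differed by 1.95 times for CEP152 and by 1.92 times for CEP295. All 6 lost their calls without DMSO 1, STIL and CEP63 also without DMSO 2, and CEP63 with total-count scaling. After the GC and length correction CEP152 was 3.26-fold and CEP295 3.59-fold lower.

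The other 8 assembly genes did not pass, and for several the treated libraries disagreed. CEP57, a partner of CEP63, was at 63.6 and 51.4 CPM in DMSO and at 13.6 and 27.8 CPM in Rib_CA (-1.47 ± 0.40; adjusted p = 0.0720). CEP97, part of the cap on the centriole tip, was at 71.6 and 50.8 CPM in DMSO and at 13.7 and 28.5 CPM in Rib_CA (-1.54 ± 0.41; adjusted p = 0.0726). Rib_CA 2 was above Rib_CA 1 by 2.05 times for CEP57 and by 2.08 times for CEP97. CEP135, of the cartwheel, was at 30.5 and 29.2 CPM in DMSO and at 16.8 and 13.1 CPM in Rib_CA (adjusted p = 0.0846). CEP120, needed for centriole elongation, was at 66.3 and 41.4 CPM in DMSO and at 22.5 and 35.9 CPM in Rib_CA (adjusted p = 0.175). CEP44 stood at 11.3 and 8.93 CPM in DMSO and at 4.01 and 23.6 CPM in Rib_CA. The treated libraries of CEP44 thus lay on either side of the controls and differed by 5.89 times. Its log2 fold change was 0.45 ± 0.73, with 1.18 without Rib_CA 1 (called higher) and -1.33 without Rib_CA 2 (called lower). CEP57L1, CEP85 and CEP76 had log2 fold changes from -1.26 to -0.23.

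CEP55 (chr10:93496632-93529092) encodes the midbody protein that calls in the machinery of the final cut between daughter cells. Per kilobase of transcript it had the highest mean level of the 52 genes in DMSO, 93.4 CPM per kb. It was at 259 and 233 CPM in DMSO and at 65.4 and 64.7 CPM in Rib_CA, so that replicates were close and the groups lay well apart. The fall was 3.79-fold (-1.92 ± 0.25; adjusted p = 0.0285), and its call was lost without DMSO 1.

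Among the appendage genes, NIN, CNTRL, CEP128 and CEP112 fell. NIN (chr14:50719763-50831121), or ninein, anchors microtubules at the subdistal appendages. It was at 215 and 170 CPM in DMSO and at 40.5 and 37.4 CPM in Rib_CA (4.94-fold lower; -2.30 ± 0.27; adjusted p = 0.0285). The fall was 2.71-fold after the GC and length correction. CNTRL, or centriolin, of the same appendages, was at 58.6 and 41.5 CPM in DMSO and at 11.6 and 7.81 CPM in Rib_CA (5.15-fold; adjusted p = 0.0285; 3.20-fold after correction). CEP128, also subdistal, was at 31.4 and 25.5 CPM in DMSO and at 7.66 and 6.71 CPM in Rib_CA (3.96-fold; adjusted p = 0.0285). The levels of these 3 genes fell by similar folds although NIN was the most abundant. CEP112 was 4.18-fold lower, at 8.31 and 5.37 CPM in DMSO and at 1.40 and 1.86 CPM in Rib_CA (adjusted p = 0.0450). CEP128 and CEP112 lost their calls without DMSO 1, and CEP112 also without DMSO 2, with total-count scaling and in limma-voom.

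The distal appendage genes, which dock the centriole at the membrane, did not pass in edgeR, and of them DESeq2 called CEP83 lower. CEP83 was at 18.1 and 10.9 CPM in DMSO and at 7.07 and 6.69 CPM in Rib_CA (-1.08 ± 0.37; adjusted p = 0.121). CEP164 was at 90.9 and 92.8 CPM in DMSO and at 125 and 89.9 CPM in Rib_CA (0.22 ± 0.27; adjusted p = 0.634). CEP89 was at 49.1 and 68.0 CPM in DMSO and at 54.2 and 61.3 CPM in Rib_CA (-0.02 ± 0.28). CEP83 therefore had lower treated libraries only, while CEP164 and CEP89 had groups that overlapped. The paralogs CEP170 and CEP170B, of the subdistal appendages and microtubules, stood on opposite sides. CEP170 was at 107 and 68.6 CPM in DMSO and at 28.4 and 40.1 CPM in Rib_CA (-1.36 ± 0.34; adjusted p = 0.0608). CEP170B was at 85.9 and 93.4 CPM in DMSO and at 158 and 112 CPM in Rib_CA (0.59 ± 0.28; adjusted p = 0.219), and was called higher without Rib_CA 2 (log2 fold change 0.82). CEP170 has a near-identical pseudogene, so its counts are uncertain. The transcripts also differ in base composition, with 39.75% GC in CEP170 and 66.2% in CEP170B.

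Of the 13 genes of centriolar satellites and the cilium gate, 6 fell: CEP290, CEP350, CEP162, PCM1, CEP126 and CEP43. PCM1, the scaffold of the satellites that carry proteins to the centrosome, was at 166 and 114 CPM in DMSO and at 33.2 and 19.7 CPM in Rib_CA (5.29-fold lower; -2.40 ± 0.37; adjusted p = 0.0285; 2.83-fold once corrected for GC and length). CEP290 (chr12:88049014-88142216), a bridge between the ciliary membrane and its microtubules, was at 61.9 and 44.1 CPM in DMSO and at 11.5 and 9.69 CPM in Rib_CA (5.00-fold; adjusted p = 0.0285; 2.67-fold after correction). CEP350, which keeps centrioles stable, was at 85.8 and 57.8 CPM in DMSO and at 15.0 and 10.2 CPM in Rib_CA (5.70-fold; adjusted p = 0.0285; 2.72-fold after correction). In these 3 genes DMSO 1 was the highest library and Rib_CA 2 the lowest. CEP162, which guides assembly of the transition zone of the cilium, was at 12 and 10.9 CPM in DMSO and at 1.94 and 1.998 CPM in Rib_CA (5.81-fold; adjusted p = 0.0285; 3.65-fold after correction). CEP126 was at 14.4 and 13.7 CPM in DMSO and at 3.62 and 3.14 CPM in Rib_CA (4.15-fold; adjusted p = 0.0293; 2.40-fold after correction). CEP43, once called FOP, was at 33.97 and 24.5 CPM in DMSO and at 9.47 and 11.9 CPM in Rib_CA (2.74-fold; adjusted p = 0.0460; 1.39-fold after correction). After the GC correction alone it was 2.05-fold lower, and its longest transcript has 14166 bases. The call of CEP43 was lost without either DMSO library, with total-count scaling and in limma-voom. CEP162 and CEP126 lost theirs without DMSO 1, and CEP126 also without DMSO 2.

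Satellite and cilium genes that did not pass included CEP131, a satellite protein, at 26.7 and 23.5 CPM in DMSO and at 29.7 and 22.4 CPM in Rib_CA (0.06 ± 0.29; adjusted p = 0.927). CEP20, once FOPNL, was at 42.3 and 38.7 CPM in DMSO and at 23.3 and 58.1 CPM in Rib_CA. Like CEP44, CEP20 had the controls between its treated libraries. CEP78, CEP72, CEP19 and CEP41 did not pass either, with log2 fold changes from -1.18 to 0.39. The linker that holds the centrioles together was measured by 2 genes. CEP250, or C-NAP1, was at 208 and 190 CPM in DMSO and at 106 and 118 CPM in Rib_CA (-0.83 ± 0.25; adjusted p = 0.0927). CEP68 was at 9.43 and 6.13 CPM in DMSO and at 11.0 and 11.7 CPM in Rib_CA (0.54 ± 0.36; adjusted p = 0.363). After the GC correction the log2 fold change was -1.08 for CEP250 and 0.61 for CEP68. After the GC and length correction it was -0.39 for CEP250 and 0.74 for CEP68. Neither passed in edgeR or limma-voom, 1 of them had an unadjusted p under 0.05, and DESeq2 called 1, CEP250, lower. Of CEP70, CEP95, CEP85L and CEP295NL none passed in edgeR or limma-voom, with 1 at an unadjusted p under 0.05 and 1 (CEP70) called lower in DESeq2. CEP295NL had only 3 to 32 counts in a library.

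**Figure D2:**
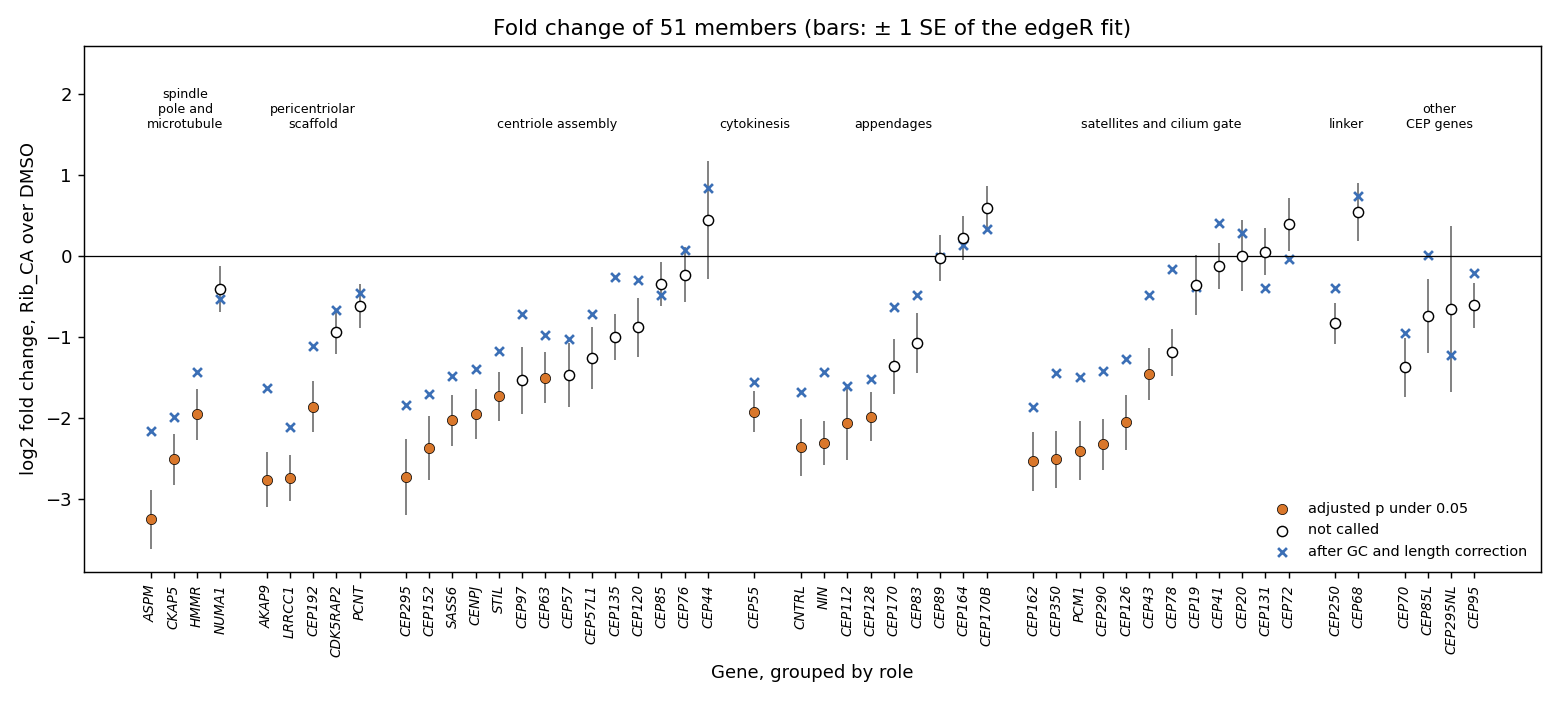
log2 fold change of Rib_CA over DMSO for 51 members, grouped by role, with ± 1 SE (filled: adjusted p under 0.05; open: not called; crosses: after the GC and length correction). Called genes lie between -3.25 and -1.45, and their crosses lie nearer to 0, between -2.17 and -0.48.

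Levels can be compared between genes per kilobase of transcript. In DMSO the highest were CEP55 (93.4 CPM per kb), NUMA1 (57.8), CKAP5 (54.9) and ASPM (21.7). NUMA1 at 51.95 and 63.7 CPM per kb and CKAP5 at 60.5 and 49.4 CPM per kb overlapped in DMSO, so their order is within the spread. In Rib_CA NUMA1 was at 49.97 and 37.3 CPM per kb, CEP55 at 24.8 and 24.5 and CKAP5 at 11.4 and 7.86. ASPM went from rank 4 of 52 by group mean to rank 31 (2.27 CPM per kb), and NIN from rank 5 to rank 21. CEP170B and CEP164, which did not pass, went from ranks 12 and 9 to ranks 3 and 4.

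**Figure D3:**
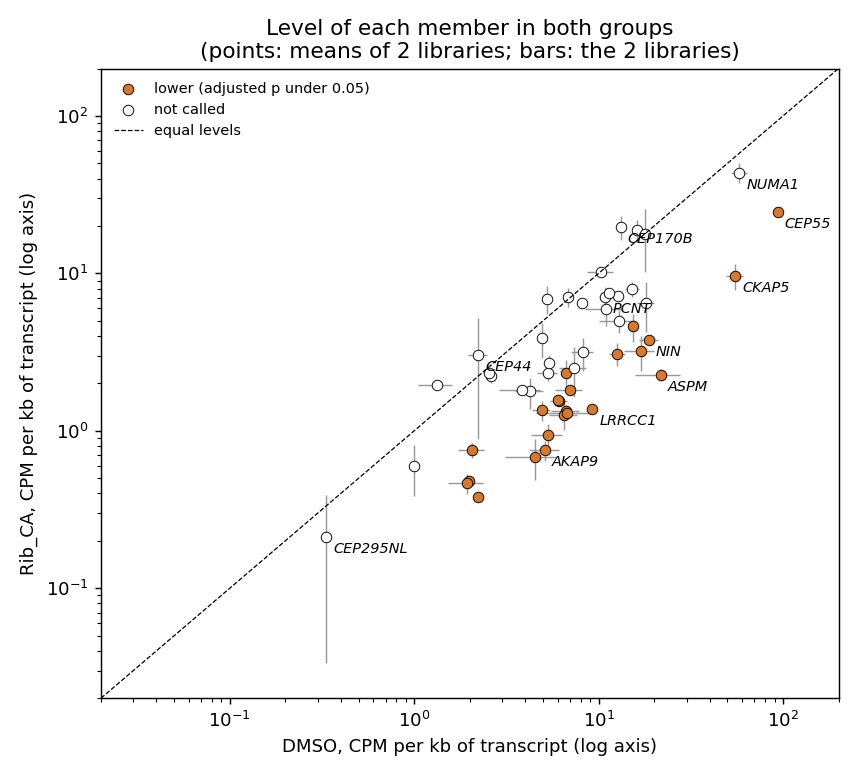
Mean level of 51 members in CPM per kb of its longest transcript, DMSO on the x axis and Rib_CA on the y axis (both log axes), with bars reaching the 2 libraries of each group. The dashed line marks equal levels, and ASPM lies farthest below it among the called genes, with 21.7 CPM per kb in DMSO and 2.27 in Rib_CA.

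Transcript GC content and length differed between the members and all tested genes. GC content had a median of 41.5% over the 52 genes and 48.5% over all tested genes, and length medians of 5656 and 3646 bases. The 23 called members had medians of 41.1% and 7039 bases, and 6 of them were under 5000 bases. All 23 called members had a GC content under 45%, the highest being 44.2% in CKAP5. Of the 38 members under 45% GC, 23 fell, against 12.1% of all 5112 tested genes in that range. Of the 14 members at 45% or more, none was called in edgeR, against 0.925% of 8539 genes, with 2 (CDK5RAP2 and CEP250) at an unadjusted p under 0.05 and 2 called lower by DESeq2 and none by limma-voom. NUMA1, PCNT, CEP164, CEP131 and CEP170B are among these 14. Within the AT-rich range, 17 of 23 members of at least 5000 bases fell, against 19.2% of 2097 genes, and 6 of 15 shorter members, against 7.13% of 3015 genes. Across the 52 genes Spearman's rho between GC content and log2 fold change was 0.54, and between length and log2 fold change -0.32. Across 13651 genes with both values they were 0.48 and -0.34. All these genes share the same 4 libraries, so the coefficients are descriptions. The part that base composition and length of the transcript played in the libraries was not tested beyond the corrections given above.

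**Figure D4:**
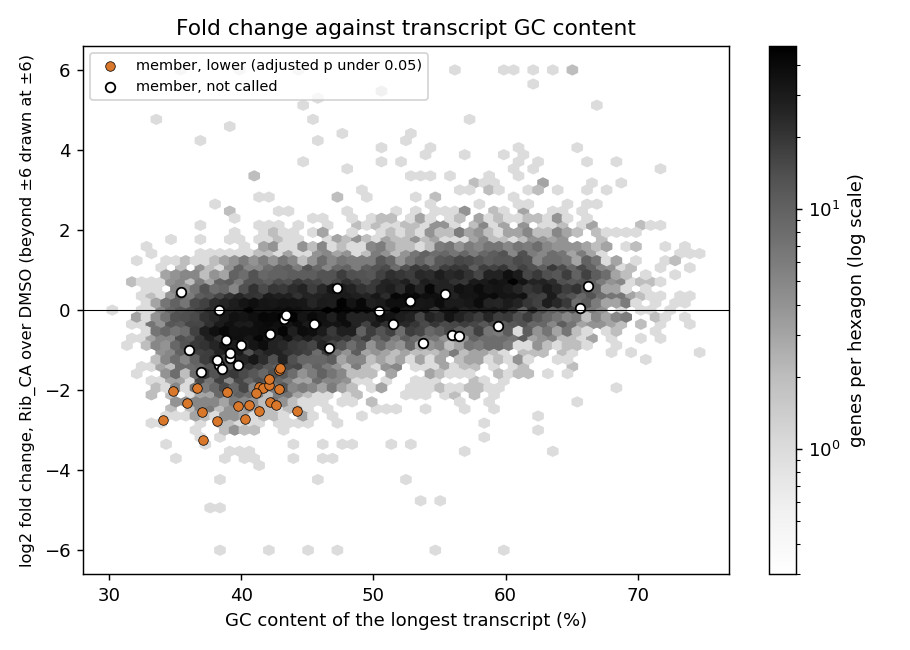
log2 fold change of Rib_CA over DMSO against GC content of the longest transcript for all tested genes (grey hexagons, darker for more genes) and 51 members (orange: called lower; white: not called). All 23 orange points lie under 45% GC, where the whole cloud also lies lower (median -0.44) than at 45% or more (median 0.27).

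Outside the 52, 60 other centrosome and spindle genes were listed, of which 14 fell (5.11% of all genes) and 1 rose (2.01%), with a median log2 fold change of -0.44. PLK4, the kinase that starts centriole duplication, was at 63.9 and 41.7 CPM in DMSO and at 11.0 and 16.6 CPM in Rib_CA. That is a 3.83-fold fall (edgeR adjusted p = 0.0330), of 2.61-fold after the GC and length correction. CCP110, which caps centrioles together with CEP97, was at 65.4 and 43.5 CPM in DMSO and at 10.6 and 16.4 CPM in Rib_CA (4.03-fold; adjusted p = 0.0310; 2.55-fold after correction). POC5 was 3.33-fold lower (2.65-fold after correction), and with these 2 it made 3 of 10 duplication genes. In the gamma-tubulin ring, which nucleates microtubules, and the augmin complex, 3 of 19 fell. They were NEDD1, the ring's adaptor (3.04-fold), HAUS6 of augmin (3.02-fold) and TUBGCP4, singled out after its values were seen (2.52-fold). Once corrected, NEDD1 was 1.99-fold, HAUS6 1.75-fold and TUBGCP4 1.91-fold lower. TUBGCP4 shares 33.4% of its exonic bases with TP53BP1 on the opposite strand, so its counts are uncertain. TUBG1, gamma-tubulin itself, was at 218 and 297 CPM in DMSO and at 225 and 118 CPM in Rib_CA and did not pass (-0.59 ± 0.37; adjusted p = 0.350). MZT2B, a small ring protein singled out after its values were seen, rose 3.13-fold, from 27.9 and 21.5 CPM to 65.1 and 89.5 CPM (adjusted p = 0.0329). It shares 44.9% of its exonic bases with SMPD4 on the opposite strand, and its counts are uncertain too. Its log2 fold change was 1.65, and 0.92 after the correction, and its call was lost without either DMSO library. Of 14 linker, appendage and satellite genes 6 fell, with ALMS1 6.35-fold, KIAA0586 3.83-fold and CCDC14 3.43-fold lower (3.60, 2.11 and 1.90-fold after the correction for GC and length). Of 17 genes of spindle kinases, motors and microtubule regulators, KIF11 (3.07-fold, 1.98-fold after correction) and TPX2 (2.87-fold, 2.71-fold after correction) fell. Without DMSO 1 or without DMSO 2, fewer of the 60 were called lower than in the full fit. Of the called genes named here, only ALMS1 kept its call in both of these fits, and all the others lost theirs without DMSO 1. With total-count scaling 4 of the 60 were called lower (2.40% of all genes), and PLK4, CCP110, POC5, NEDD1, HAUS6 and CCDC14 were among those lost.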

How the data were processed

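Gene symbols were matched to 20148 of the 20263 Ensembl IDs, and 20224 IDs were in GENCODE release 29 (GRCh38), which gave gene limits, exons and the length and GC content of the longest transcript. The deposited values are raw counts per gene, whole numbers the authors did not normalise. The submitters' processing notes name GRCm38 and mm10, mouse builds that do not match the human IDs, and the build is not settled here. The aligner, counting tool and use of strand are not stated in any source at hand. Among counts of 1 to 10 in a library, even values made up 67.7 to 70.7%. Exons of 4 called members overlap another gene of the table, by at most 3.86% of their bases.

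Groups came from the library titles, which do not say whether replicates were separate cultures, and p-values therefore rest on a spread between samples that may be technical. Within each group the 2 libraries differed by far more than counting noise (chi-square 256.6 and 265.3 times its degrees of freedom). edgeR 4.0.16 in R 4.3.3 tested 13667 genes kept by filterByExpr (minimum count 10, total 15), with TMM scaling, robust glmQLFit and glmQLFTest on 2 residual degrees of freedom, and Benjamini-Hochberg adjustment over all genes at 0.05. The standard error is the absolute log2 fold change over the root of F. The fit was also run on simulated counts that held no GC or length trend, so that run cannot speak to such a trend in these libraries. The alternatives were DESeq2 1.42.0, its size factors, limma-voom (limma 3.58.1), total counts, other filters, the replicate block, leaving out each library, leaving out mitochondrial genes, and smooth offsets (mgcv 1.9.3, 6 basis functions) for GC content or GC content and length. Such offsets also take out any true change related to GC or length. With 1 library left out, the lone library is assumed to vary like the other group. Members, roles and companion genes were chosen with earlier results of these data known. Any member may be named, except that 1 is not reported here by name or drawn and enters the counts only. Values by library are given for the 16 called members with the smallest p and for 30 set names. CEP295, CEP112, CEP43, CEP44, CEP89, CEP170B and CEP20 lie outside both sets and were singled out after their values were seen. Of the companion genes PLK4, TUBG1, NEDD1, CCP110 and the 8 with the smallest p are named, with TUBGCP4 and MZT2B added later. Figures were drawn with matplotlib 3.10.9.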

Additional observations from a re-analysis of the deposited data

How the results depend on the processing

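With 1 library left out, the members called lower numbered 9 to 34 and those called higher 0 to 1, the companion list genes called lower 1 to 21, and the median log2 fold change of members ran from -1.56 to -1.09. In these fits all genes called lower numbered 137 to 1634 and all genes called higher 36 to 1234. With the GC correction, the GC and length correction, or the replicate block with the GC and length correction, 0 members, 0 companion genes and 0 genes of the table were called lower, and 0 were called higher. The median of the members was then -0.95, -0.71 and -0.72. With total counts alone the median of all genes moved by 0.20, with 328 genes lower and 260 higher, 19 members lower and 4 companion genes lower. DESeq2 called 1514 genes lower and 1043 higher. Without a filter 448 genes were higher, and with at least 5 CPM in 2 libraries 418. With the replicate block, 24 members, 687 genes in all lower and 260 higher were called; CEP43 lost its call, and CEP57 and CEP97 were called lower. Same-numbered libraries did not deviate together (correlation -0.186), so the numbers were not taken as pairs. With the numbers crossed, an alternative chosen after seeing the data, 31 members and 1267 genes in all were lower and 724 higher. The log2 fold change of CEP44 was 1.185 without Rib_CA 1 and -1.335 without Rib_CA 2. Of the 52 members, 11 changed sign under at least 1 alternative, none of them called in the reported fit. Depth was lowest for CEP295NL, with 3 to 32 counts in a library.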
